A study of Mus musculus with 24 samples.

Results

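The miRs of the Dlk1-Dio3 imprinted cluster were described here across 9 hippocampal miR arrays. A miR is a short RNA that pairs with messenger RNAs, mainly through bases 2 to 8 at its 5′ end, the seed. Members were taken by name, as the mature mouse probe sets, without the passenger strands marked star, of a fixed list of cluster miRs, which gave 49 members among 601 mature and 1412 mouse probe sets in all, from 42 precursors. The rule uses names only, and the list was drawn up with earlier results of these data known.

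The Dlk1-Dio3 region is imprinted: the protein-coding genes Dlk1, Rtl1 and Dio3 are transcribed from the paternal chromosome, and the noncoding RNAs Meg3, Rian and Mirg, which carry the miRs, from the maternal one. Most miRs of the region are found mainly in placental mammals and are abundant in brain. miR-134, miR-381 and miR-485 are known from work on neuronal dendrites and synapses, and several members are induced by neuronal activity.

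All animals were C57BL/6 male mice, and bilateral hippocampi were taken on postnatal day 9. The untreated control group (Con) was reared by the dam with minimal handling. The MS2 and MS5 groups received morphine at 2 and 5 mg/kg from day 5 on, and each of these animals also went through daily separation from the dam and episodes of nitrogen then oxygen breathing. The miR arrays held 3 animals per group and the mRNA arrays 5 per group. No group received stress or morphine alone, so against controls they cannot be told apart. The MS5 and MS2 groups shared the stress and differed in dose.

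Levels are given on the log2 scale of the deposited table, and a difference of 1 is a doubling. A member was called when it changed by more than 1.5-fold (0.58 in log2) with an unadjusted p under 0.05 in limma, fitted over all 1412 probe sets. Adjusted p-values are Benjamini-Hochberg values over the same 1412. With 3 arrays against 3, the exact permutation test cannot go below 0.1, the value reached whenever the arrays of the groups do not overlap. Fewer cells of a type and less RNA per cell cannot be told apart in tissue of this kind.

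Among the members, the array of MS2 replicate 4 stood apart from the other MS2 arrays. Between MS2 replicates 3 and 6, 2 of the 49 members differed by more than 0.5, whereas 20 differed by that much between replicates 3 and 4, and 21 between 4 and 6. Pairs of control arrays had 2 to 3 such members and pairs of MS5 arrays 6 to 8. Over all probe sets the array stood apart far less. The median absolute difference there was 0.134 between replicates 3 and 4, 0.142 between 4 and 6 and 0.110 between 3 and 6. It was 0.116 to 0.123 for pairs of control arrays and 0.122 to 0.124 for pairs of MS5 arrays. On the mRNA array that carries the same animal number, the 5 hippocampal neuron markers summed to 13.8, the lowest MS2 value, against 15.4 to 15.8 in controls. The 5 hypothalamus and thalamus markers summed to 13.9 there, against 11.2 to 11.8 in controls. Results on MS2 are therefore given with and without replicate 4, and the part of tissue content in them was not tested. Replicate 4 was singled out partly by the members' own values. Counts and p-values without it are therefore a description of the members and not a test.

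Choroid plexus markers also varied. On the miR arrays the 6 choroid plexus and ciliated cell miRs summed to 9.25 and 9.34 in MS5 replicates 12 and 14, against 10.6 to 11.7 in controls and 11.4 in MS5 replicate 9. On the mRNA arrays the 8 choroid plexus genes were lowest in MS5 replicates 14 and 9, at 13.4 and 16.1, and stood at 18.1 in replicate 12. Numbers 9 and 12 thus went opposite ways on the platforms, and no result below pairs arrays by number. The 6 neuronal miRs summed to between 14.9 and 15.1 on all 9 arrays, a sum carried by miR-124. Others of that list varied more: miR-9 and miR-137 ranged over 1.39 and 1.22, and in MS2 miR-138 was 0.47 lower, at -0.47 (adjusted p = 0.149 in limma), and miR-128 0.49 higher (adjusted p = 0.315).

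The mature sequences that the results turn on are shown first, from RefSeq on GRCm38.p6, 5′ to 3′, with the seed in capitals. The first set holds the members furthest above controls in MS2.

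miR-434-3p: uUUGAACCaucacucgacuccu
miR-410: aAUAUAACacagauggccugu
miR-323-3p: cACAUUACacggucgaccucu
miR-376b: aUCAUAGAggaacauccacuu

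The second set holds members that were lower in MS2, together with miR-127, the member of highest signal, and miR-323-5p, the other arm of the miR-323 precursor.

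miR-668: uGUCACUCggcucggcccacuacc
miR-665: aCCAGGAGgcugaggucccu
miR-667: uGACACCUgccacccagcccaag
miR-370: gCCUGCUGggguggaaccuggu
miR-134: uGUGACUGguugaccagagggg
miR-433: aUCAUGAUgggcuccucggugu
miR-127: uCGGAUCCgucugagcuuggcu
miR-323-5p: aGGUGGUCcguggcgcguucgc

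A RefSeq sequence was matched for 46 of the 49 members. For 31 of these the deposited name carries no arm. The arm held to be the main product was assigned by hand, without probe sequences to check it. miR-376c, miR-485 and miR-487b had no entry. All 46 lie on the plus strand of chromosome 12 between 109585818 and 109743784. No seed was shared: the 46 members carried 46 different seeds. The closest pairs were miR-300 and miR-381, equal at 19 of 22 bases, miR-376a and miR-376b at 18 of 21, and miR-495 and miR-543 at 18 of 22, so probes for these pairs may share signal.

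The members form groups along the chromosome. Upstream, 11 members lie within the annotated span of Rtl1, a retrotransposon-derived gene read from the opposite strand, among them miR-665 (chr12:109586368-109586387), miR-433 (chr12:109591781-109591802), miR-127 (chr12:109592888-109592909) and miR-434-3p (chr12:109594565-109594586). miR-341 and miR-370 (chr12:109618305-109618326) lie within Rian, a noncoding RNA gene. The next 22, from miR-379 to miR-668 (chr12:109734774-109734797), lie between the annotated spans of Rian and Mirg. They hold miR-323-3p (chr12:109712558-109712578), miR-667 (chr12:109720061-109720083), miR-376b (chr12:109723508-109723528) and miR-134 (chr12:109734145-109734166). The last 11, up to miR-410 (chr12:109743764-109743784), lie within Mirg.

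The cluster was well represented in P9 hippocampus. The members' mean levels ran from 3.92 to 12.4 with a median of 7.62, against 4.74 for all mature and 4.16 for all mouse probe sets. The median of all probe sets was exceeded by 44 of 49 members and by 407 of the 601 mature probe sets. A mean above 10 was found for 8 members, against 66 of the 601 mature and 70 of all 1412 probe sets. The 8 members were, from the highest, miR-127, miR-487b, miR-541, miR-433, miR-382, miR-379, miR-370 and miR-300. Probes differ in their response, so this order is one of signal. Neighbours within a precursor differed widely: miR-433 averaged 11.6 and its star strand 5.86, and miR-382 11.4 and its star strand 4.22.

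In MS2 the cluster did not move one way. Relative to controls 26 members were higher and 23 lower, with a median log2 difference of 0.06, against -0.01 for all probe sets and -0.01 for the other mature probe sets. Past the threshold, 3 members were higher (background 1.42% of all probe sets) and 1 was lower (background 1.56%). At an unadjusted p under 0.05 there were 12 higher members (background 5.52%) and 7 lower (background 7.65%). That was 38.8% of the members, against 17.9% of the 552 other mature probe sets, whose signal was mostly lower. Among those above the median level of all probe sets, it was 43.2% of 44 members against 24.8% of 363 other mature probe sets. Groups did not overlap for 13 higher members (background 7.22%) and 5 lower ones (background 8.57%). No member had an adjusted p under 0.05, which 1.13% of all probe sets reached, and the smallest was 0.0732 in limma.

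miR-434-3p, a product of the maternal transcript that runs antisense to Rtl1, had the largest difference. Its level was 9.18, 9.42 and 9.32 in Con replicates 16, 17 and 18, and 10.11, 10.23 and 9.88 in MS2 replicates 3, 4 and 6. All MS2 arrays were above all control arrays. The log2 difference was 0.76 ± 0.17 (SE, n = 3 and 3 arrays; limma p = 0.00127, adjusted p = 0.0732, exact permutation p = 0.1). It stayed past the threshold in MS2 under every alternative run, and was 0.69 without replicate 4. Its other arm, miR-434-5p, was higher by 0.50 (adjusted p = 0.259), also with no overlap.

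miR-410, the last member along the chromosome, read 7.54, 7.57 and 7.22 in the controls and 7.76, 8.43 and 8.15 in MS2. The groups did not overlap, and the difference was 0.67 ± 0.17 (SE; adjusted p = 0.101 in limma). Without replicate 4, the highest of the MS2 arrays, it was 0.51 and no longer past the fold threshold.

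miR-323-3p read 6.17, 6.63 and 6.46 in the controls and 6.97, 7.48 and 6.84 in MS2, again without overlap, a difference of 0.67 ± 0.22 (SE; adjusted p = 0.196 in limma). It too rested partly on replicate 4 and was 0.48 without it. miR-376b, at 7.84, 8.10 and 7.77 in the controls and 8.38, 8.32 and 8.72 in MS2, was 0.57 higher (SE 0.14, adjusted p = 0.101 in limma), just short of the fold threshold.

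Smaller positive differences without overlap were measured for miR-369-5p (0.54), miR-337-3p (0.53), miR-495 (0.46), miR-329 (0.45), miR-154 (0.41) and miR-376a (0.40). miR-154 is among the miRs that earlier work in mice linked to morphine intake. It read 7.47, 7.52 and 7.36 in the controls, 7.95, 7.93 and 7.68 in MS2 and 7.57, 7.71 and 7.39 in MS5. Only its MS2 arrays lay clear of the controls.

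Among lower members miR-668 passed the threshold. It read 9.46, 9.05 and 9.06 in the controls and 8.43, 9.09 and 8.25 in MS2, a difference of -0.60 ± 0.23 (SE; adjusted p = 0.297 in limma). Replicates 3 and 6 were below every control, whereas replicate 4 lay within the control range.

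miR-665, at -0.58, missed the fold threshold by 0.000202. Its MS2 replicate 4 was 8.96, between the controls at 9.30, 8.86 and 9.05, while replicates 3 and 6 were 8.20 and 8.31. miR-667 read 8.09, 7.67 and 7.71 in the controls and 6.97, 7.66 and 7.10 in MS2, a difference of -0.58 ± 0.19 (SE; adjusted p = 0.196 in limma). Its replicate 4 lay just under the lowest control.

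miR-370 (controls 10.84, 10.76 and 10.7, MS2 9.98, 10.58 and 10.07) was 0.55 lower without overlap, at -0.55 ± 0.16 (SE; adjusted p = 0.149 in limma). miR-127, the member of highest signal, was lower by less and varied little. It read 12.64, 12.51 and 12.50 in the controls and 12.20, 12.36 and 12.18 in MS2, a difference of -0.31 ± 0.08 (SE; adjusted p = 0.101 in limma), with no overlap.

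For the lower members the outcome turned on replicate 4. The level in replicates 3 and 6 was below every control for 17 members, and replicate 4 was also below for 5 of them. For higher members the array mattered less: replicates 3 and 6 were above every control for 16 members, and replicate 4 for 13 of these. Over all probe sets, the 3 MS2 arrays lay below every control in 8.57% and above every control in 7.22%. The counts on replicates 3 and 6 alone were made for the members only. They have no such share beside them, so they do not show a trait particular to the cluster. Replicate 4 exceeded both other MS2 arrays by more than 0.5 in 18 members and was never below both by that much. This count too was made for the members only, with no share over all probe sets beside it.

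miR-134, which limits dendritic spine size in hippocampal neurons, shows this most clearly. The controls read 9.74, 9.58 and 9.58. MS2 replicates 3 and 6 read 8.88 and 8.93, below all controls, and replicate 4 read 10.28, above all of them. The difference was -0.28 ± 0.32 with the array (SE; adjusted p = 0.793 in limma) and -0.73 without it (adjusted p = 0.0179). miR-433 behaved alike, at 12.08, 11.58 and 11.68 in the controls, 11.00 and 11.02 in replicates 3 and 6, and 12.25 in replicate 4. It was -0.35 with the array and -0.77 without it (adjusted p = 0.722 and 0.0292 in limma).

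miR-485, which acts on presynaptic and postsynaptic protein levels, read 8.98, 8.67 and 8.71 in the controls, 7.81 and 7.77 in replicates 3 and 6, and 8.93 in replicate 4. It had the largest decrease without that array, -0.99 (adjusted p = 0.0117 in limma), and -0.62 with it (adjusted p = 0.392).

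Without replicate 4, 11 members passed the threshold, 2 higher (background 2.90% of all probe sets) and 9 lower (background 3.54%). The higher members were miR-434-3p and miR-376b. The lower members were miR-485, miR-668, miR-665, miR-667, miR-433, miR-370, miR-134, miR-323-5p and miR-540-3p. An adjusted p under 0.05 was then reached by 10 members (background 6.73%), smallest at 0.0117. MS2 is left with 2 arrays there and takes its spread from all groups, and calls rose over all probe sets as well. The members' own values had helped to set the array apart, so these adjusted p-values describe and do not test. The medians of the members were 0.06 with the array and -0.01 without it.

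In MS5 no member passed the threshold, higher (background 0.212%) or lower (background 0.779%). Relative to controls 31 members were higher and 18 lower, with a median log2 difference of 0.08, against 0.00 for all probe sets. At an unadjusted p under 0.05 there were 7 higher members (background 4.25%) and 0 lower ones (background 4.25%). Groups did not overlap for 9 higher members (background 6.52%) and 0 lower ones (background 5.74%). The smallest adjusted p among members was 0.443 in limma.

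The members furthest above controls in MS5 were among those highest in MS2, and both differences use the same control arrays. miR-434-3p read 9.83, 10.22 and 9.51 in MS5 replicates 12, 14 and 9, all above the controls, a difference of 0.55 ± 0.17 (SE; adjusted p = 0.443 in limma). miR-410 read 7.96, 8.05 and 7.78, 0.49 above the controls, and miR-323-3p 6.70, 7.31 and 6.64, 0.46 above them. Neither overlapped the controls.

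miR-495 had the smallest p in MS5. It read 6.96, 7.10 and 6.84 in the controls and 7.44, 7.59 and 7.31 in MS5, a difference of 0.48 ± 0.14 (SE; adjusted p = 0.443 in limma) without overlap. miR-543, alike in sequence, was 0.44 higher, with its groups overlapping, and miR-376b was 0.44 higher without overlap. miR-381, a product known from neuronal dendrite outgrowth, was 0.22 higher, at 7.92, 7.99 and 7.80 in the controls and 8.13, 8.22 and 8.02 in MS5.

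The 2 MS5 arrays low in choroid plexus miRs were higher than the third in some members and not in others. For miR-434-3p replicates 12 and 14 read 9.83 and 10.22 and replicate 9 read 9.51. Without replicate 9 its difference was 0.72 and passed the threshold. Over the 23 members whose GC content is under 50%, the median distance from the control mean was 0.22, 0.32 and 0.01 in replicates 12, 14 and 9. Over the 23 with 50% GC or more it was -0.03, 0.17 and 0.00, with replicate 12 the lowest. The part of choroid plexus content in these differences was not tested.

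Between the doses, MS5 against MS2, no member passed the threshold (background 0.425%). At an unadjusted p under 0.05 there were 7 members, 4 higher and 3 lower in MS5 (background 7.01%). The smallest p belonged to miR-337-3p, at 5.57, 5.34 and 5.30 in MS2 and 4.61, 5.07 and 5.06 in MS5, without overlap, a difference of -0.49 ± 0.14 (SE; adjusted p = 0.542 in limma). miR-409-3p was 0.31 higher in MS5 (9.39, 9.64 and 9.40 against 9.74, 9.89 and 9.73) and miR-431 was 0.42 higher, with MS2 at 8.41, 8.80 and 8.28 and MS5 at 8.77, 9.05 and 8.92. The MS5 arrays of miR-409-3p lay above all of MS2, and those of miR-431 overlapped with replicate 4. Without MS2 replicate 4 there were 7 members past the threshold, all higher in MS5 (background 2.20%, from 31 probe sets against 2 with all arrays). The smallest adjusted p was then 0.079 in limma, shared by miR-431 and miR-485.

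The direction of the MS2 difference went with base composition. Over the 46 members with a sequence, the MS2 difference and the GC content of the mature sequence correlated with Pearson's r = -0.60 and Spearman's rho = -0.59. This is a description across members that share the same arrays. For 31 of the 46 the GC content rests on the arm assigned by hand. In the 23 members with 50% GC or more the median MS2 difference was -0.17, with 15 lower and 8 higher. In the 23 with less GC it was 0.36, with 6 lower and 17 higher.

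The same split in MS5 gave medians of -0.01 and 0.18, with r = -0.38. Array by array, the GC-rich members stood at -0.22, 0.10 and -0.25 relative to the control mean in MS2 replicates 3, 4 and 6, and the others at 0.21, 0.27 and 0.32. Replicate 4 thus differed from its group in the GC-rich members more than in the rest. In the sequences above, miR-410 and miR-376b are at 38.1% GC and miR-668 and miR-370 at 66.7% and 68.2%. The printed sets do not separate fully: miR-323-3p, 0.67 higher in MS2, is at 52.4% and so among the GC-rich members. miR-434-3p is at 45.5%. The same comparison outside the cluster was not made. A sequence was matched for 38.9% of the 601 mature probe sets, members included, a share that may not stand for the rest. Nothing here says that the split is particular to the cluster. Whether hybridization properties enter this split was not tested.

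Arms of the same precursor did not always differ from controls in the same direction. Of 20 precursors with both arms on the array, 12 had both above a level of 5. In 4 of these the mean differences of the arms had opposite signs in MS2. In none of the 4 did both arms reach an unadjusted p under 0.05 in limma. miR-323-3p was 0.67 higher and miR-323-5p 0.39 lower (adjusted p = 0.196 and 0.704 in limma). The level of miR-323-3p minus that of miR-323-5p was -0.75, 0.68 and -0.01 in the controls and 1.21, 0.77 and 1.13 in MS2, without overlap (exact permutation p = 0.1, the smallest possible). miR-433 was 0.35 lower and its star strand 0.60 higher (adjusted p = 0.722 and 0.0885 in limma). That difference overlapped between groups, at 6.73, 5.82 and 6.27 in the controls and 4.72, 6.08 and 5.16 in MS2. In miR-127 both arms were lower, by 0.31 and 0.29.

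The star and hairpin probe sets of the same precursors were read in the same fit. Of 13 star probe sets, 2 passed the threshold in MS2, both higher, against 1.42% of all probe sets: miR-433-star and miR-154-star, the latter by 0.73 (adjusted p = 0.0933 in limma). At an unadjusted p under 0.05 there were 3 star probe sets, all higher (background 5.52%), the further one being miR-411-star, 0.47 higher. In MS5 none of the 13 passed the threshold. All were above the control mean, by 0.00 to 0.50, as were 711 of all 1412 probe sets. The star probe sets of miR-136, miR-300, miR-376a, miR-376b, miR-376c and miR-382 had levels of 3.99 to 4.25, close to the median of all probe sets at 4.16. None of the 48 hairpin probe sets passed it in any comparison, and their MS2 differences lay between -0.26 and 0.32. Hairpin levels lay between 3.93 and 6.05, most of them close to the median of all probe sets.

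By position, the Rtl1 group held 4 higher and 7 lower members in MS2, the Rian group 0 higher and 2 lower, and the remaining 36 members 22 higher and 14 lower. Their medians were -0.15, -0.32 and 0.11. Members higher and lower in MS2 lay side by side: miR-127 and miR-434-3p are separated by 1655 bases on the same strand. In MS5 the medians were -0.02, -0.11 and 0.12.

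The probe sets whose levels ran most like those of miR-434-3p over the 9 arrays were miR-125a-5p, miR-323-3p and miR-1983, with Pearson's r of 0.96, 0.94 and 0.87 among 721 compared. miR-323-3p is the member among them. Cluster miRs outside the list that had probe sets were miR-432, miR-493, miR-654, miR-666, miR-673, miR-758, miR-770, miR-882, miR-1188, miR-1193 and miR-1197, of which none passed the threshold in MS2. Of these miR-666-5p came nearest, with -0.57.

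The genes of the region were read on the mRNA arrays. None passed the threshold in MS2 (background 0.0233% of all probes), in MS5 (background 0.228%) or between the doses (background 0.129%). Mirg, the noncoding host of the most downstream members, averaged 12.86 ± 0.12 in controls, 13.05 ± 0.24 in MS2 and 13.07 ± 0.22 in MS5 (SD, n = 5 arrays each). The groups overlapped. MS2 replicate 4 and MS5 replicate 14 were highest, at 13.44 and 13.40, and the control arrays ran from 12.70 to 13.01. The difference was 0.20 in MS2 and 0.10 without replicate 4. In MS5 it was 0.21. The other Mirg probe, of similar signal (mean 12.97), was 0.10 above controls in MS2 and 0.09 in MS5 with all arrays.

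Meg3, the noncoding RNA at the upstream end, was near the top of the signal range, with a mean of 16.63 ± 0.06 in controls, 16.61 ± 0.11 in MS2 and 16.67 ± 0.14 in MS5 (SD, n = 5 each). Its other probes, at lower signal, were 0.21 and 0.21 above controls in MS2 and 0.22 and 0.26 in MS5, none past the threshold. The probes thus differed, and MS2 replicate 4 read 14.91 and 16.00 on these, against control means of 14.34 and 15.25. Dlk1, the paternally expressed gene for a membrane protein related to Notch ligands, had 1 array apart in each treated group. It read 11.00 in MS2 replicate 4 and 10.47 in MS5 replicate 14, against 8.55 to 9.20 in the controls and 8.30 to 9.61 on the other treated arrays. Those arrays also had high sums of the hypothalamus and thalamus markers, at 13.9 and 13.1. MS5 replicates 8 and 12 had sums as high, at 13.3 and 13.1, with Dlk1 at 9.18 and 9.61. The sums differed in content. Lhx9 and Tcf7l2 read 13.08 and 9.79 in MS2 replicate 4, above all controls. In MS5 replicate 14 they read 10.34 and 8.66, within their control ranges of 10.13 to 10.92 and 8.47 to 8.72. Avp, Oxt and Trh were above all controls there, at 10.79, 11.62 and 11.08. The MS2 difference of Dlk1 was 0.30 with replicate 4 and -0.13 without it.

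Dio3, which inactivates thyroid hormone, averaged 7.71 ± 0.38 in controls, 7.50 ± 0.45 in MS2 and 7.62 ± 0.68 in MS5 (SD, n = 5 each), with the groups overlapping. Rtl1 was well above background on 3 of 15 arrays. Rian could not be matched to a probe by name. Of the neighbours, Begain, Wdr25, Wars and Ppp2r5c differed from controls by -0.08 to 0.12 in either dose group.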

How the data were processed

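The miR values were background corrected, variance stabilized, quantile normalized and summarized by median polish by the authors (Affymetrix miRNA 2.0 arrays), and the deposited values are on the log2 scale. They were used unchanged. For mRNA, the deposited Agilent Feature Extraction intensity of each spot was corrected here by normexp with an offset of 50 and quantile normalized, and the probe of highest mean was kept per gene. Array number, not read depth, limits precision.

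Members and lists were chosen with earlier results of these data known. Groups came from the labels. Each platform was fitted in limma 3.58.1 (R 4.3.3) with 3 groups and 3 contrasts, as moderated tests, two-sided, with Benjamini-Hochberg adjustment over all probe sets or probes. The exact permutation test was two-sided. The labels do not state whether animals of a group shared a litter, so p-values measure the spread between these samples. The paper states that treated pups went back to cages holding untreated littermates, so litters can span groups. The fits take no account of this.

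Named members were those past the threshold, the 8 of highest level, the 5 largest differences without overlap in each dose group, the 3 smallest p per comparison and a fixed list of well-known members; others named were chosen after their values were seen. Marker lists for muscle and liver, blood and immune miRs were also summed: they ran from 6.57 to 7.58, 7.96 to 8.62 and 5.51 to 5.94, with the muscle and liver maximum in MS2 replicate 4. In simulated miR data with 200 of 1412 probe sets raised by 1, the fit recovered 99.0% past the threshold, and 6 unchanged probe sets passed it. A shift of 1 is larger than any member difference with all arrays, the largest being 0.76. The simulation therefore does not tell how often differences of the members' size would be recovered.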

Additional observations from a re-analysis of the deposited data

Results flagged for a closer look

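Among the region's genes on the mRNA arrays, 27 sets of 5 arrays were examined for a sample far from the others, and 1 was found, about what chance gives at 1 set in 20. Wars, a tRNA synthetase gene near the cluster, read 14.3 in MS2 replicate 4, with the other MS2 arrays between 14.5 and 14.6.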

How the results depend on the processing

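In MS2 against controls, 4 members passed the threshold, and 8 with quantile normalization on top, 9 with array weights and 11 with MS2 replicate 4 and MS5 replicate 14 left out, a setting chosen after seeing the data; leaving out each array in turn gave 3 to 11, with 9 without Con replicate 17 and 11 without MS2 replicate 4. In MS5 against controls the count was 0, and 0 to 1 on leaving out each array, the 1 being miR-434-3p without Con replicate 17 or MS5 replicate 9. Between the doses it was 0, and 1 with array weights, 5 with both named arrays left out, and 0 to 7 on leaving out each array, 7 without MS2 replicate 4 and 1 without MS5 replicate 12. Settings left out of this list moved no count of members by more than 1.5 times. Quantile normalization on top also changed the split from 3 higher and 1 lower to 8 higher and 0 lower, and array weights to 3 and 6; the cause was not tested. The smallest adjusted p among members in MS2 ranged from 0.0117 to 0.24, and passed 0.05 with quantile normalization on top, array weights, and without MS2 replicate 3 or 4. The members' medians moved by less than the spread between arrays under each alternative, although that in MS2 changed sign without replicate 4 and with array weights, and that between the doses without MS2 replicate 3 or 6. None of the region's genes changed its call. No analysis paired by litter was possible, because the labels do not state the litter. Array number, 3 per group, limits what the miR comparisons can resolve.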
